A study of Mus musculus with 8 samples.

Results

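The genes described here are the secreted Wnt ligands, their Frizzled receptors (Fzd) and the secreted antagonists of the Sfrp and Dkk families, chosen by symbol from the protein-coding genes of the GENCODE annotation of mm9. The rule took 37 of 22367 protein-coding genes, namely 19 Wnt ligands, 10 Fzd receptors, 4 Sfrp genes and 4 Dkk genes. 5-hydroxymethylcytosine (5hmC), a cytosine base that Tet enzymes make from 5-methylcytosine, was mapped by GLIB-Seq, in which glucose is attached to 5hmC, oxidized and coupled to biotin so that the marked DNA fragments can be pulled down and sequenced. The values are the peaks that the authors called in each library and the bp that those peaks cover.

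Wnt proteins are lipid-modified signals that bind Frizzled receptors at the surface of a neighbouring cell. In the canonical branch, binding together with an Lrp co-receptor stabilizes β-catenin, which then acts with Tcf factors in the nucleus, while other branches steer cell polarity and movement. Sfrp proteins bind Wnt proteins outside the cell, and most Dkk proteins block the Lrp co-receptors. In embryonic stem cells (ESCs) many genes of developmental signals are kept silent or low by Polycomb repressive complex 2, of which Suz12 is a subunit.

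There were 6 peak lists, 1 from each library: the E14 line of ESCs, mouse embryonic fibroblasts (MEFs) of strain C57BL/6 labelled embryonic day 11, adult brain and adult liver of C57BL/6 mice aged 8 weeks, and E14 ESCs that received a short hairpin, either a control one directed at GFP (shGFP) or one directed at Suz12 (shSuz12). E14 is a single line, the transfected cells were selected with puromycin, and the study's methods give a later embryonic day for the MEFs than the label. The cell types differ in strain as well as in tissue, and these cannot be told apart. Peak lists of 5hmC show neither the level of Suz12 nor the identity of a tissue, so that neither could be checked. The lists held 130409 to 217026 peaks that covered 83.5 to 208 Mb, and their read depth is unknown. The score of a peak is given by MACS and is higher for a smaller p-value. Peaks reached down to a score of 80 in the ESC and liver lists, 50.02 in shGFP, 30.34 in shSuz12 and 30 in brain and MEFs, so no threshold was common to the lists. With 1 library per condition, no difference between libraries could be tested, and the exact (Clopper-Pearson) 95% intervals below cover counting error over genes and peaks only.

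A promoter was taken as the 2000 bp centred on the transcription start site (TSS), and was counted where a peak overlapped it by at least 1 bp. In ESCs, 20 of the 37 promoters carried a peak (54.1%, 95% interval 36.9 to 70.5%), against 31.9% of all protein-coding promoters. In shGFP the count was 25 of 37 (67.6%, 50.2 to 82.0%), against 27.1% of all. In both libraries the share of all promoters lay below the interval of these genes.

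In MEFs, brain and liver the members did not stand above the rest. A promoter peak was found at 11 members in MEFs (29.7%, 15.9 to 47.0%) against 30.1% of all promoters, at 7 in brain (18.9%, 7.96 to 35.2%) against 20.0%, and at 7 in liver (18.9%) against 29.4%. In shSuz12, also an ESC library, the count was 13 (35.1%, 20.2 to 52.5%) against 21.4%, so the members lay above all promoters there. The shares in MEFs, brain, liver and shSuz12 had the background within their intervals. For shSuz12 the interval is wide and does not show that the share was like that of all promoters. At a common score of at least 80 the counts from ESCs to shSuz12, in the order given above, were 20, 2, 1, 7, 19 and 4. The corresponding shares of all promoters were 31.9, 12.0, 5.45, 29.4, 19.0 and 5.07%. Members lay above all promoters in ESCs (54.1%), shGFP (51.4%) and shSuz12 (10.8%, 3.03 to 25.4%), with the background within the interval in shSuz12. In MEFs (5.41%), brain (2.7%) and liver (18.9%) they lay below all promoters.

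**Figure D1:**
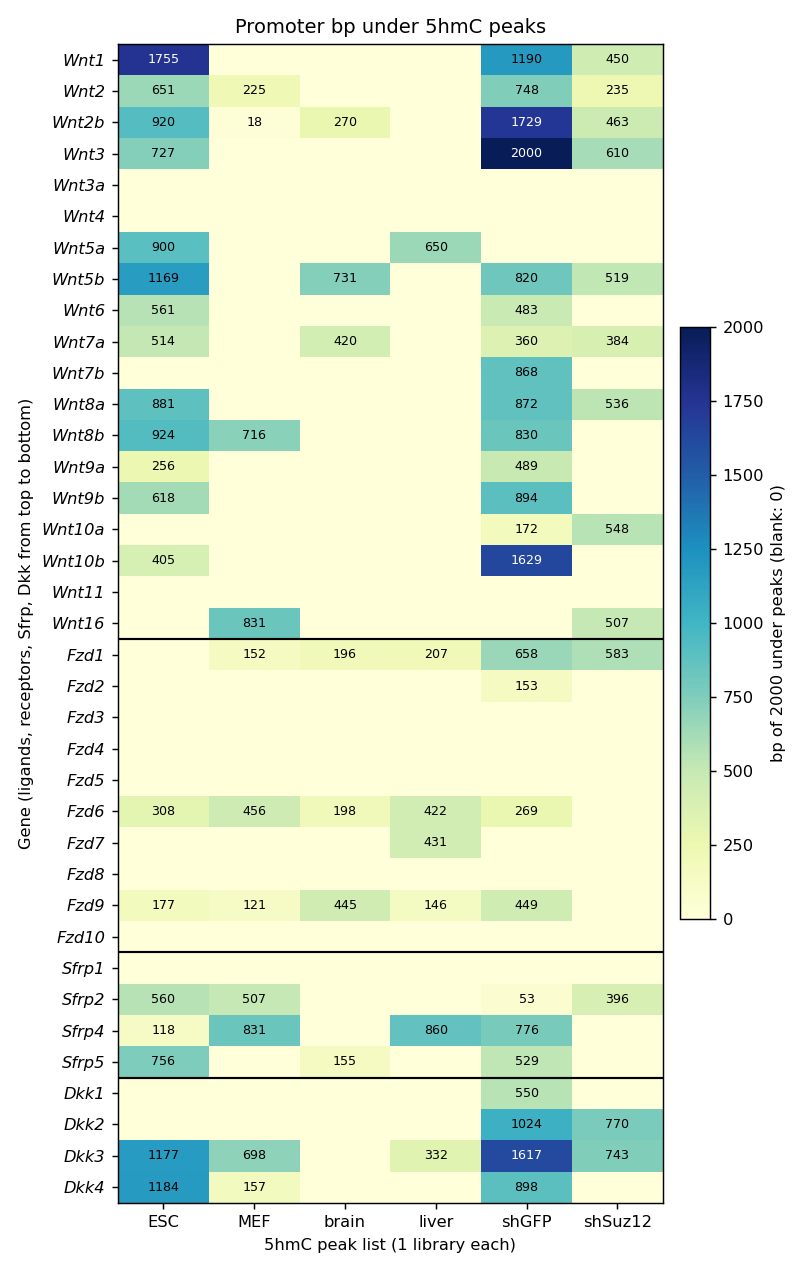
Promoter bp under 5hmC peaks, of 2000 bp, for each of the 37 genes (rows, by role) in each of the 6 peak lists (columns, 1 library each). Blank cells are at 0 bp. The Wnt rows are mostly filled in ESC and shGFP and mostly blank in MEF, brain and liver, while Fzd promoters have few entries in any list.

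Wnt ligands are 19 of the 37 members. They were 13 of the 20 members with a promoter peak in ESCs and 14 of the 25 in shGFP. In MEFs, brain and liver they were the smaller part. Among the antagonists, 3 of 4 Sfrp (19.4 to 99.4%) and 2 of 4 Dkk genes (6.76 to 93.2%) had a promoter peak in ESCs, against 31.9% of all. In MEFs it was 2 of 4 in each family (6.76 to 93.2%), against 30.1%. In shGFP it was 3 of 4 Sfrp (19.4 to 99.4%) and 4 of 4 Dkk genes (39.8 to 100%), against 27.1%. The background lay within these intervals except that of the Dkk genes in shGFP. Of 19 ligands, 13 had a promoter peak in ESCs and 14 in shGFP, against 4 in MEFs, 3 in brain, 1 in liver and 9 in shSuz12. Peaks covered 27.1% of the bp of the ligand promoters in ESCs and 34.4% in shGFP, compared with 4.71% in MEFs, 3.74% in brain, 1.71% in liver and 11.2% in shSuz12. Over all protein-coding promoters the covered shares were 13.0, 11.0, 9.88, 6.62, 10.0 and 5.95%, respectively.

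A promoter peak in ESCs and shGFP with none in MEFs, brain or liver was found at 7 members, all of them Wnt ligands (18.9% of the 37, 7.96 to 35.2%), against 4.99% of all protein-coding genes. These were Wnt1, which is needed for the midbrain, Wnt3, which is needed for gastrulation, Wnt6, Wnt8a, a ligand of the early embryo, Wnt9a, Wnt9b, which induces kidney tubules, and Wnt10b, which restrains fat cell formation. At Wnt1 (chr15:98620288-98624268, plus strand) the promoter bp under peaks were 1755 in ESCs, 0 in MEFs, brain and liver, 1190 in shGFP and 450 in shSuz12. At Wnt9b the corresponding values were 618, 0, 0, 0, 894 and 0 bp, and at Wnt6 they were 561, 0, 0, 0, 483 and 0 bp. These genes were selected by the absence of a promoter peak in the 3 differentiated libraries, so that absence is no separate result. The MEF and brain lists reach lower scores than the ESC list, and the liver list reaches the same score, 80. The part of score limits and read depth in this pattern was not tested.

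The opposite pattern was rare among the members. A promoter peak in MEFs, brain or liver with none in ESCs or shGFP was found at 2 members (5.41%, 0.661 to 18.2%), against 20.8% of all genes. These were Wnt16, a ligand known from cortical bone, with 831 bp in MEFs, and Fzd7, with 431 bp in liver. Wnt16 also had 507 bp in shSuz12, in peaks that scored 45.31 and 73.18.

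Other ligand promoters varied by cell type. Wnt7a, a dorsal limb and brain ligand, had 514 bp in ESCs, 0 in MEFs, 420 in brain, 0 in liver, 360 in shGFP and 384 in shSuz12. Wnt5b had 1169, 0, 731, 0, 820 and 519 bp in the same order, so that brain was the differentiated library with a peak in both genes. Wnt5a, the main ligand of the non-canonical branch, had 900 bp in ESCs and 650 bp in liver but 0 in shGFP, the reverse of the usual likeness of ESCs and shGFP: it was the 1 member of 20 with a peak in ESCs and none in shGFP (5.0%, 0.127 to 24.9%), against 32.0% of all genes with an ESC peak. A peak in shGFP and none in ESCs was found at 6 of 25 members (24.0%, 9.36 to 45.1%), against 20.0%, namely Wnt7b, whose promoter overlaps AU022754, Wnt10a, Fzd1, Fzd2, Dkk1 and Dkk2.

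For Frizzled promoters the share with a peak lay above that of all promoters in some lists and below it in others. A promoter peak was found at 2 of the 10 receptors in ESCs (20%, 2.52 to 55.6%; all genes 31.9%), 3 in MEFs (all 30.1%), 3 in brain (all 20.0%), 4 in liver (all 29.4%), 4 in shGFP (40%, 12.2 to 73.8%; all 27.1%) and 1 in shSuz12 (all 21.4%), and in each list the share of all promoters lay within the interval of these 10 genes. The covered share of their promoters was 2.43, 3.65, 4.2, 6.03, 7.65 and 2.92%, compared with 7.42, 8.42, 4.39, 10.8, 7.01 and 3.62% of all HCP promoters, those of high CpG content, to which 9 of the 10 belong. Fzd6, a planar polarity receptor whose promoter overlaps the gene model Gm17265, had 308, 456, 198, 422, 269 and 0 bp, and Fzd9 had 177, 121, 445, 146, 449 and 0 bp. These genes were therefore covered in every library except shSuz12. Fzd3, Fzd4, Fzd5, Fzd8 and Fzd10 had no promoter peak in any library.

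Of the antagonists, Sfrp5 had 756 bp in ESCs, 155 bp in brain and 529 bp in shGFP, with 0 in the other libraries, and Sfrp4 had 118, 831, 0, 860, 776 and 0 bp. Dkk3, the divergent member of its family, had 1177, 698, 0, 332, 1617 and 743 bp. Dkk4 had 1184, 157, 0, 0, 898 and 0 bp. Dkk1, an antagonist that is needed for the head, had 550 bp in shGFP and 0 in the other 5 libraries. Brain had no promoter peak at any of the 4 Dkk genes. Dkk4 and Sfrp1 lie on chromosome 8, where the peak density relative to the genome was 1.75 to 1.84 in the 3 ESC libraries but 1.13 to 1.16 in the others, and the part of this in their values was not tested.

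No promoter peak in any library was found at 9 members (24.3%, 11.8 to 41.2%), against 40.6% of all genes, namely Wnt3a, Wnt4, Wnt11, Sfrp1 and the 5 receptors named above. All 9 had promoters of high CpG content (HCP), defined as a stretch of 500 bp between 700 bp upstream and 200 bp downstream of the TSS with a CpG observed-to-expected ratio above 0.75 and a GC content above 55%. None of the members had a promoter peak in all 6 libraries, against 2.71% of all genes. Of the 37 promoters, 21 were HCP (56.8%), against 34.6% of all genes. Another 11 were of intermediate CpG content (29.7%, against 24.7%) and 5 of low CpG content (13.5%, against 40.7%). Of the 10 Fzd promoters, 9 were HCP.

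Among the 21 HCP members, a promoter peak was found at 9 in ESCs (42.9%, 21.8 to 66.0%; all HCP promoters 27.2%), 5 in MEFs (23.8%; all 34.6%), 6 in brain (28.6%; all 19.7%), 4 in liver (19.0%; all 40.5%), 11 in shGFP (52.4%, 29.8 to 74.3%; all 22.4%) and 5 in shSuz12 (23.8%; all 17.1%). In shGFP the share of all HCP promoters lay below the interval of the members, whereas in ESCs it lay within it. Within member promoters that had a peak, the covered bp held fewer CpGs per bp than the uncovered bp in each library. The CpG observed-to-expected ratio was 0.441 under peaks and 0.677 outside them in ESCs, 0.315 and 0.783 in brain, and 0.516 and 0.669 in shGFP. For all protein-coding genes the ESC values were 0.357 and 0.556.

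The position of the peaks relative to the TSS was then compared. The TSS itself lay under a peak at 5 members in ESCs (13.5%; all genes 11.8%), 1 in MEFs (2.7%; all 6.87%), 0 in brain (interval up to 9.49%; all 4.46%), 0 in liver (all 5.38%), 8 in shGFP (21.6%, 9.83 to 38.2%; all 11.2%) and 1 in shSuz12 (2.7%; all 5.83%). In each library the background lay within the interval of the members. These intervals are wide, so they do not show that the shares were alike.

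The 8 members in shGFP were Wnt1, Wnt2b, Wnt3, Wnt8b, Wnt10b, Dkk2, Dkk3 and Dkk4, and Dkk3 was the 1 member with a covered TSS in shSuz12. Coverage of members was higher further into the genes, at a distance that differed between the lists. At 2250 bp downstream of the TSS, the position at which the ESC share was highest, 48.6% of members lay under a peak in ESCs, 27.0% in MEFs, 21.6% in brain, 16.2% in liver, 37.8% in shGFP and 16.2% in shSuz12, compared with 16.6, 12.9, 13.6, 19.4, 10.6 and 6.94% of all genes. At 3750 bp the order of ESCs and MEFs was the reverse, with 24.3% of members in ESCs, 43.2% in MEFs, 18.9% in brain, 27.0% in liver, 16.2% in shGFP and 2.7% in shSuz12, and at 3000 bp brain, at 35.1%, was above ESCs, at 32.4%.

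**Figure D2:**
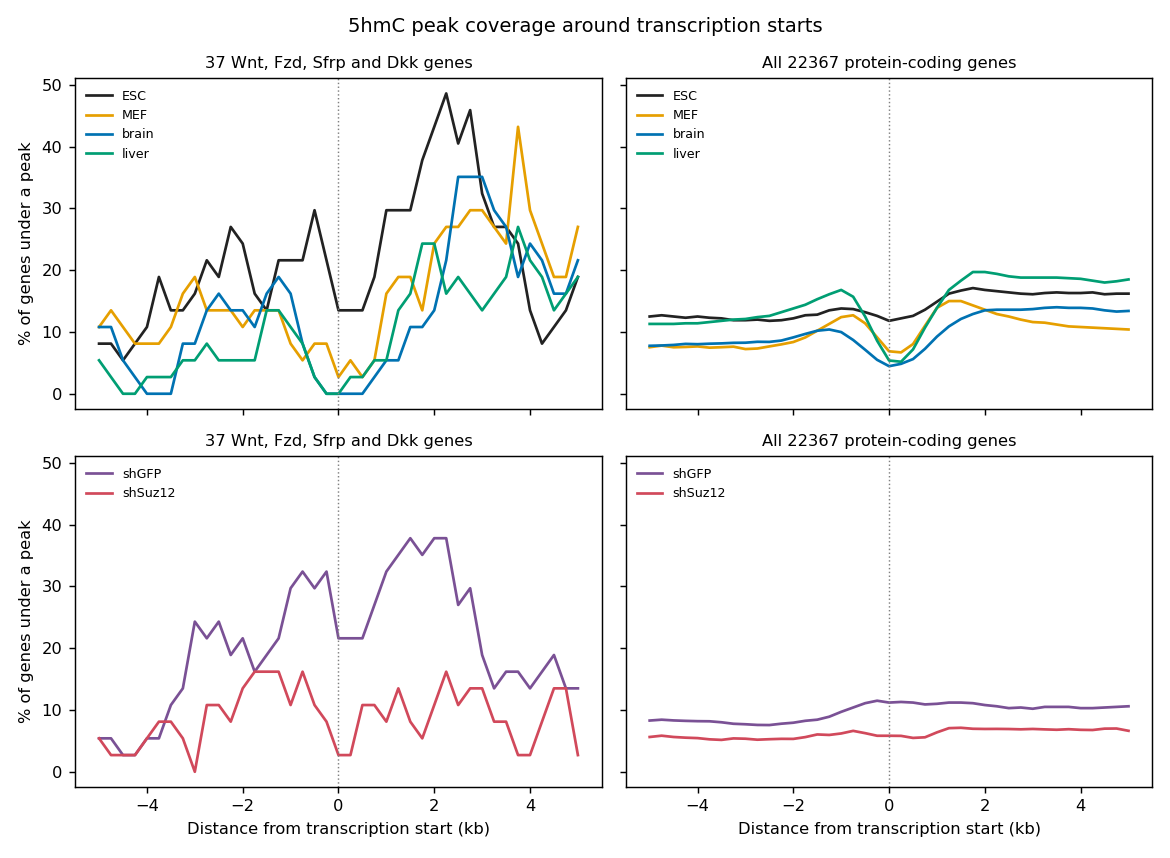
Percentage of genes under a 5hmC peak at each distance from the transcription start, in kb, read every 250 bp, for the 37 members (left) and all 22367 protein-coding genes (right), with the 4 cell types above and the shGFP and shSuz12 libraries below. In the members the ESC line reaches 48.6% at 2250 bp downstream and the MEF line 43.2% at 3750 bp, and the shGFP line lies above the shSuz12 line over the 1 kb on both sides of the start.

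The transfected ESCs were compared to ask how 5hmC at these genes differed when Suz12 was targeted. Peaks covered 20060 bp of member promoters in shGFP (27.1% of their bp) and 6744 bp in shSuz12 (9.11%), a ratio of 0.336. Over all protein-coding promoters the ratio was 0.54, over HCP promoters 0.516, and over the genome, where peaks covered 121 and 83.5 Mb, it was 0.689. The promoter ratio was 0.325 for Wnt ligands, 0.381 for Fzd, 0.292 for Sfrp and 0.37 for Dkk genes, each resting on 4 to 19 genes. Upstream of the TSS the ratio was 0.382 in members (all genes 0.564), and downstream it was 0.28 (all 0.516). By role the upstream ratio was 0.224 for Wnt, 0.886 for Fzd, 7.47 for Sfrp and 0.844 for Dkk genes. The downstream ratio was 0.538, 0, 0 and 0.0971, respectively. The upstream Fzd value rested on Fzd1 alone (658 to 583 bp), and the upstream Sfrp value on Sfrp2 alone (53 to 396 bp). The ESC library covered 14561 bp of the member promoters, and the ratio of shGFP to ESC was 1.38 in members but 0.846 in all genes. Control cells thus lay above untransfected cells at these promoters. With ESCs as the reference, a choice made after the values were seen, the ratio of shSuz12 was 0.463 in members and 0.457 in all promoters, so that the members were lower than all promoters against shGFP but not against ESCs. Relative to the share of the genome under peaks, member promoters were covered 2.92 times as much in ESCs, 5.94 times in shGFP and 2.9 times in shSuz12 (all promoters 1.93, 2.41 and 1.89 times). These are ratios of summed bp of peaks called separately in each library, and they move with how much was called.

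Of the 26 member promoters whose covered bp differed between the transfected lines, 22 had fewer bp in shSuz12 (84.6%, 65.1 to 95.6%), against 72.7% of all such promoters, a share within the interval. The 4 with more bp were Wnt7a (360 to 384 bp), Wnt10a (172 to 548 bp), Wnt16 (0 to 507 bp) and Sfrp2 (53 to 396 bp). A peak in shGFP and none in shSuz12 was found at 13 of 25 members (52.0%, 31.3 to 72.2%), against 44.1% of all genes with a shGFP peak. These were Wnt6, Wnt7b, Wnt8b, Wnt9a, Wnt9b, Wnt10b, Fzd2, Fzd6, Fzd9, Sfrp4, Sfrp5, Dkk1 and Dkk4. Of the 19 members with a peak in both ESCs and shGFP, 10 had none in shSuz12 (52.6%, 28.9 to 75.6%), against 37.3% of all such genes. The background lay inside both intervals.

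A promoter peak in shSuz12 with none in shGFP was found at 1 member, Wnt16 (2.7%, 0.0684 to 14.2%), against 6.25% of all genes. With peaks that scored at least 80, 16 of 19 members lost the promoter peak (84.2%, 60.4 to 96.6%) against 78.7% of all genes. With the 50% of each list that scored highest, it was 14 of 17 (82.4%, 56.6 to 96.2%) against 56.1%, which lay just below the interval, so that the place of the background depended on the peaks taken. The median peak width was 776 bp in shGFP and 564 bp in shSuz12, and its part in the covered bp was not tested.

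**Figure D3:**
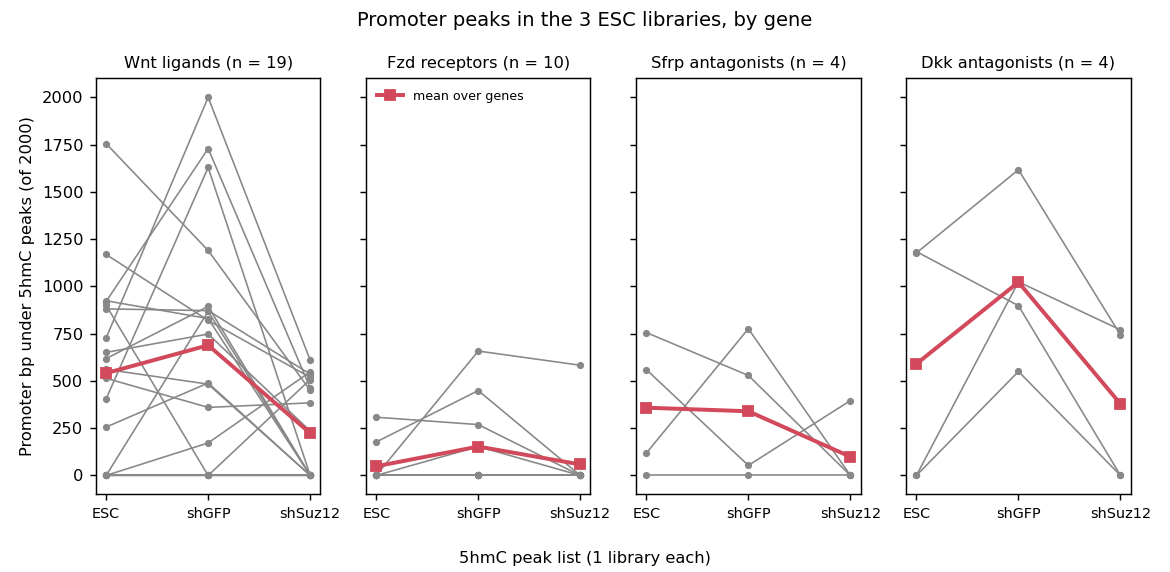
Promoter bp under 5hmC peaks, of 2000 bp, in the ESC, shGFP and shSuz12 libraries (1 each). Grey points joined by lines are single genes and red squares are means over the genes of a role. Of 37 genes, 22 are lower in shSuz12 than in shGFP and 4 are higher, and Wnt3 goes from 2000 to 610 bp.

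The largest differences between shGFP and shSuz12 were at Wnt10b, Wnt3, Wnt2b and Dkk4. Wnt3 (chr11:103635464-103679271, plus strand) had 727 promoter bp in ESCs, 0 in MEFs, brain and liver, 2000 in shGFP and 610 in shSuz12. In shGFP the whole promoter lay in a peak of 5084 bp that ran from position -3703 to 1380 relative to the TSS and scored 845.55. In shSuz12 a peak of 970 bp remained in the gene from 390 to 1359 bp downstream, with a score of 102.16, close to the ESC peak from 273 to 1303 bp. Another shSuz12 peak, of 1064 bp with a score of 196.83, lay within the stretch of the shGFP peak but upstream of the promoter. The 1 kb upstream of the TSS that was covered in shGFP was bare in ESCs and in shSuz12.

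Wnt10b (chr15:98602184-98608581, minus strand) had 405 promoter bp in ESCs, 1629 bp in shGFP and 0 in the other 4 libraries. Its shGFP peaks from 377 to 2846 bp downstream and from position -1054 to 5 relative to the TSS scored 435.18 and 119.25. Wnt2b (chr3:104747723-104764627, minus strand), a ligand of the lung and eye, had 920, 18, 270, 0, 1729 and 463 bp. Dkk4 (chr8:23734515-23738008, plus strand) was covered across the TSS from position -455 to 636 in ESCs and from -278 to 479 in shGFP.

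The sequences under these promoter peaks are shown for the 4 genes, as the stretch of at most 300 bp outside exons that lay under a peak of both ESCs and shGFP and held the most CpGs. They are read 5′ to 3′ on the strand of the gene from mm9, and capitals mark each CpG, the dinucleotide whose cytosine can carry 5hmC. The Wnt10b stretch (chr15:98607693-98607985, minus strand) lies in an intron and holds 8 CpGs. The Wnt3 stretch (chr11:103635831-103636130, plus strand) lies in an intron and holds 17 CpGs, and the Wnt2b stretch (chr3:104763659-104763958, minus strand) lies in an intron and holds 8. The Dkk4 stretch (chr8:23734237-23734514, plus strand) ends 1 bp before the TSS and holds 4.
Wnt10b intron: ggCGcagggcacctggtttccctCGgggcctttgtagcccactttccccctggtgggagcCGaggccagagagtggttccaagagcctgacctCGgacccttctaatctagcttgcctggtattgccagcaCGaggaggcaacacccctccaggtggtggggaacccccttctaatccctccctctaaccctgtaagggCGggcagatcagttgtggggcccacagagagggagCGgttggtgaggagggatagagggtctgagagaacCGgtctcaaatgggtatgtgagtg
Wnt3 intron: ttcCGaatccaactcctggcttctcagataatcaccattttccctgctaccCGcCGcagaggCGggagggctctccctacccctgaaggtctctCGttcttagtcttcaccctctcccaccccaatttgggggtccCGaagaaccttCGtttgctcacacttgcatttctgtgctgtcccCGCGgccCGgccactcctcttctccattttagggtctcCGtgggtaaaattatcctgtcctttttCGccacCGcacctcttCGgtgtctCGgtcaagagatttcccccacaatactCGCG
Wnt2b intron: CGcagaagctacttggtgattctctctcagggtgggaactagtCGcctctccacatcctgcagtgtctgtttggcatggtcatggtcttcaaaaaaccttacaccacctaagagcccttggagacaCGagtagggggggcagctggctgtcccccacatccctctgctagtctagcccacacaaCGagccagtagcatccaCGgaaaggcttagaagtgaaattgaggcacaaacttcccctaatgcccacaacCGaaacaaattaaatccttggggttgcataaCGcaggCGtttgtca
Dkk4 upstream: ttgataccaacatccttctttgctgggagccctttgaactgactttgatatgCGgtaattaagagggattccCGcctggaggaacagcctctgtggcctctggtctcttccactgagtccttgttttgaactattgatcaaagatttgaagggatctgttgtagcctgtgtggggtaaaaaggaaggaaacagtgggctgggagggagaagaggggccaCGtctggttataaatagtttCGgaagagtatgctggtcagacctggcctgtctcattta
In shSuz12, 0 of the 293 bp at Wnt10b and 0 of the 278 bp at Dkk4 were covered, whereas 277 of the 300 bp at Wnt3 and 235 of the 300 bp at Wnt2b were covered. In MEFs and liver the 4 stretches were bare, and in brain 238 bp at Wnt2b were covered. The stretches at Wnt10b and Wnt2b hold 8 CpGs each, and the one was bare in shSuz12 and the other mostly covered.

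Across whole gene spans, from the first to the last annotated base, a peak was found at 34 of 37 members in ESCs (91.9%, 78.1 to 98.3%; all genes 67.8%), 31 in MEFs (83.8%; all 61.0%), 27 in brain (73.0%; all 60.7%), 23 in liver (62.2%; all 57.9%), 33 in shGFP (89.2%; all 63.4%) and 27 in shSuz12 (73.0%; all 63.0%). The background lay below the interval of the members in ESCs, MEFs and shGFP and within it in brain, liver and shSuz12. The median gene length was 13428 bp in members and 15427 bp in all genes. Peaks covered 22.1% of the bp of the member spans in ESCs, 22.3% in MEFs, 19.9% in brain, 9.54% in liver, 15.5% in shGFP and 8.43% in shSuz12, compared with 11.7, 11.9, 14.0, 12.9, 7.5 and 5.29% of all gene spans. In liver the summed bp gave a lower share in members than in all genes, whereas the median share per gene was 5.17% in members and 4.44% in all genes.

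A gene-span peak in ESCs and shGFP with none in MEFs, brain or liver was found at 4 members (10.8%, 3.03 to 25.4%), against 2.61% of all genes. These were Wnt1, Wnt6, Wnt10b and Fzd2. They were selected by the absence of a gene-span peak in the 3 differentiated libraries, so their 0 bp there is no separate result. Wnt10b was covered over 41.2% of its span in ESCs, 80.2% in shGFP and 0% in shSuz12. Wnt1 was covered over 57.3, 61.9 and 0%, Wnt6 over 53.4, 36.9 and 6.74%, and Fzd2 over 31.0, 63.1 and 11.4%, respectively.

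**Figure D4:**
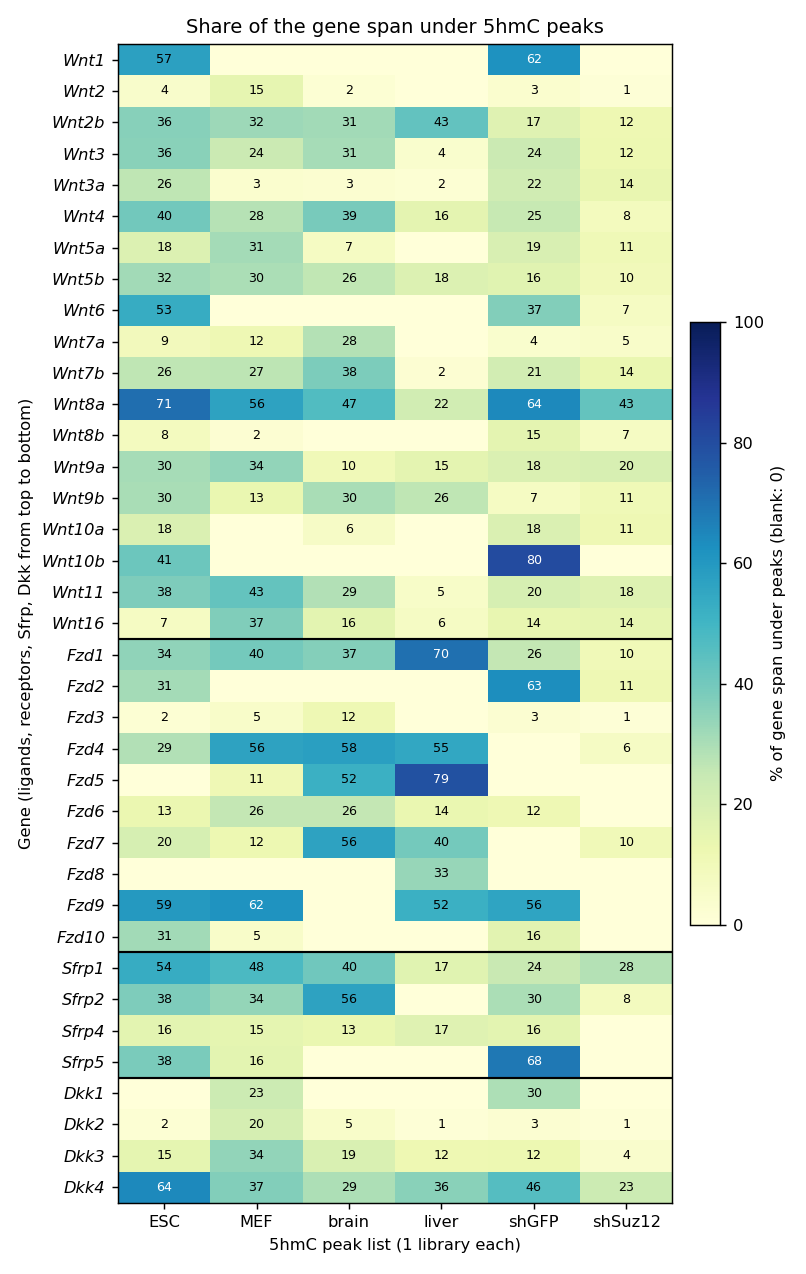
Percentage of each gene span under 5hmC peaks for the 37 genes (rows, by role) in the 6 peak lists (columns, 1 library each), rounded to whole percent, with blank cells at 0. Wnt1, Wnt6, Wnt10b and Fzd2 are blank in MEF, brain and liver, and Fzd4, Fzd5, Fzd7 and Fzd8 are blank in shGFP.

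Other ligands were covered along the gene in MEFs, brain or liver too. Wnt5b (111788 bp long) carried 32 peaks in ESCs, 31 in MEFs, 26 in brain, 17 in liver, 20 in shGFP and 17 in shSuz12, which covered 31.6, 29.8, 26.0, 18.3, 16.5 and 9.51% of it, although Fbxl14 overlaps this span and its share cannot be separated. Wnt4, a kidney and ovary ligand with no promoter peak, was covered over 40.1, 27.8, 38.9, 15.6, 24.8 and 8.31% of its span. The member peak in a gene span with the highest score in ESCs, 1632.01, lay in Wnt4, 17242 to 19459 bp from its TSS. Wnt7a was covered over 28.5% in brain but 0% in liver and 3.82 to 11.6% in the other libraries. Wnt3a, a canonical ligand of the tail bud, was covered over 26.3% in ESCs and 21.9% in shGFP but 3.19, 2.94 and 1.66% in MEFs, brain and liver.

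The antagonists differed in which cell types had the most covered bp in the gene span. Dkk2 (95002 bp long) carried 19 peaks over 19381 bp in MEFs, against 2 peaks over 1542 bp in ESCs, 5 over 4467 bp in brain, 1 over 914 bp in liver, 3 over 2524 bp in shGFP and 2 over 1040 bp in shSuz12. Dkk3 was also covered most in MEFs, over 34.0% of its span, compared with 3.91 to 19.0% elsewhere. Sfrp1 had no promoter peak but was covered over 53.5% of its span in ESCs, 47.8% in MEFs, 40.3% in brain, 16.6% in liver, 24.5% in shGFP and 28.2% in shSuz12. It was 1 of the 7 members with more gene-span bp in shSuz12 than in shGFP. Sfrp2 had its highest gene-span share in brain, 56.5%, and was at 0 in liver.

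In the comparison of shSuz12 with shGFP, gene-span bp were lower in 28 of the 35 members that differed (80%, 63.1 to 91.6%), against 72.2% of all such genes. The summed bp went from 135241 to 73620, a ratio of 0.544, compared with 0.706 for all genes. By role the ratio was 0.576 for Wnt, 0.212 for Fzd, 0.7 for Sfrp and 0.336 for Dkk genes. The Sfrp ratio rested on Sfrp1, which had 9345 bp in shGFP and 10738 bp in shSuz12, and for the other 3 Sfrp genes together it was 0.0916 (6892 to 631 bp). With ESCs as the reference the ratio was 0.381 in members and 0.451 in all genes.

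The Frizzled receptors were covered more in their coding sequence than at the promoter, which held for all protein-coding genes too. In ESCs peaks covered 32.8% of the coding sequence and 13.0% of the promoter bp of all genes. The coding sequence (CDS) of 7 of the 10 is 1 uninterrupted block (Fzd1, Fzd2, Fzd5, Fzd7, Fzd8, Fzd9 and Fzd10). Over all 10, peaks covered 40.2% of the CDS in ESCs, 27.8% in MEFs, 30.0% in brain, 37.7% in liver, 24.9% in shGFP and 7.32% in shSuz12. The CDS of all protein-coding genes was covered over 32.8, 14.4, 25.0, 23.4, 21.8 and 15.5%. Fzd coding sequence was therefore above all genes in 5 libraries and below them in shSuz12.

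The receptors differed in which cell types were covered. At Fzd4, the retinal vessel receptor, peaks covered 1326 of 1611 CDS bp in each of ESCs, MEFs, brain and liver, 0 in shGFP and 272 in shSuz12. At Fzd5, a receptor of the gut epithelium and yolk sac, 0 of 1755 CDS bp were covered in ESCs, 808 in MEFs, 1474 in brain, 1626 in liver and 0 in both transfected libraries. At Fzd2, 866 of 1710 bp were covered in ESCs, 1164 in shGFP, 143 in shSuz12 and 0 in MEFs, brain and liver. Fzd4 and Fzd5 were thus covered in the differentiated libraries and bare in shGFP, and Fzd2 the reverse.

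Fzd9 had 1153 CDS bp in ESCs, 1097 in MEFs, 0 in brain, 1122 in liver, 1289 in shGFP and 0 in shSuz12. Fzd8 had 505 CDS bp in liver and 0 in the other 5 libraries. The highest scores of member peaks in gene spans in liver were 1086.72 and 1000.43 at Fzd5, 944.78 at Fzd1 and 941.15 at Fzd4. At Fzd4 the untransfected and control ESCs also differed, with a peak that scored 392.09 in ESCs and none in shGFP.

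For Wnt ligands, peaks covered 66.6% of the CDS in ESCs, 36.9% in MEFs, 39.1% in brain, 19.3% in liver, 67.3% in shGFP and 39.1% in shSuz12, and their introns over 24.3, 20.1, 19.7, 8.04, 15.4 and 9.01%. The CDS was covered more than the introns in every library, as it was over all protein-coding genes. In Sfrp genes the order was reversed in ESCs, MEFs, brain, liver and shSuz12, where 33.2, 18.4, 13.0, 14.6 and 1.92% of the CDS and 47.2, 42.8, 42.5, 15.0 and 22.1% of the introns were covered, and Sfrp1 holds most of those intron bp.

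In the mouse genome 8 of the Wnt ligands lie in 4 neighbouring pairs less than 50 kb apart, and the pairs differed in their peaks. From the start of Wnt10b to the end of Wnt1 (chr15:98602184-98624268), with 11706 bp between the genes, peaks covered 40.9% in ESCs, 0% in MEFs, 3.85% in brain, 0% in liver, 50.9% in shGFP and 10.4% in shSuz12. Over Wnt6 and Wnt10a (chr1:74818466-74850753) the shares were 32.3, 0, 2.31, 0, 24.5 and 7.27%. In both pairs MEFs and liver had no peak over either gene or the gap, and brain had 1 peak in each.

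Over Wnt3a and Wnt9a (chr11:59061535-59147054) peaks covered 25.0, 14.2, 4.64, 5.62, 19.0 and 13.4% in the same order. Over Wnt9b and Wnt3 (chr11:103588678-103679271) they covered 29.2, 14.8, 22.4, 9.07, 20.1 and 9.76%. These pairs carried peaks in every library, and within them Wnt9a and Wnt3 were covered in MEFs over 34.0 and 23.8% of their spans. In all 4 pairs the shSuz12 share was lower than the shGFP share, as it was over the genome (3.15% in shSuz12 and 4.56% in shGFP). Within the pairs, Wnt9a (4935 to 5212 bp) and Wnt9b (1508 to 2388 bp) had more gene-span bp in shSuz12 than in shGFP, and the other genes had fewer. The gap between Wnt10b and Wnt1 held the 3 shSuz12 peaks of that pair, 2300 bp in all, while both genes had 0 bp.

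**Figure D5:**
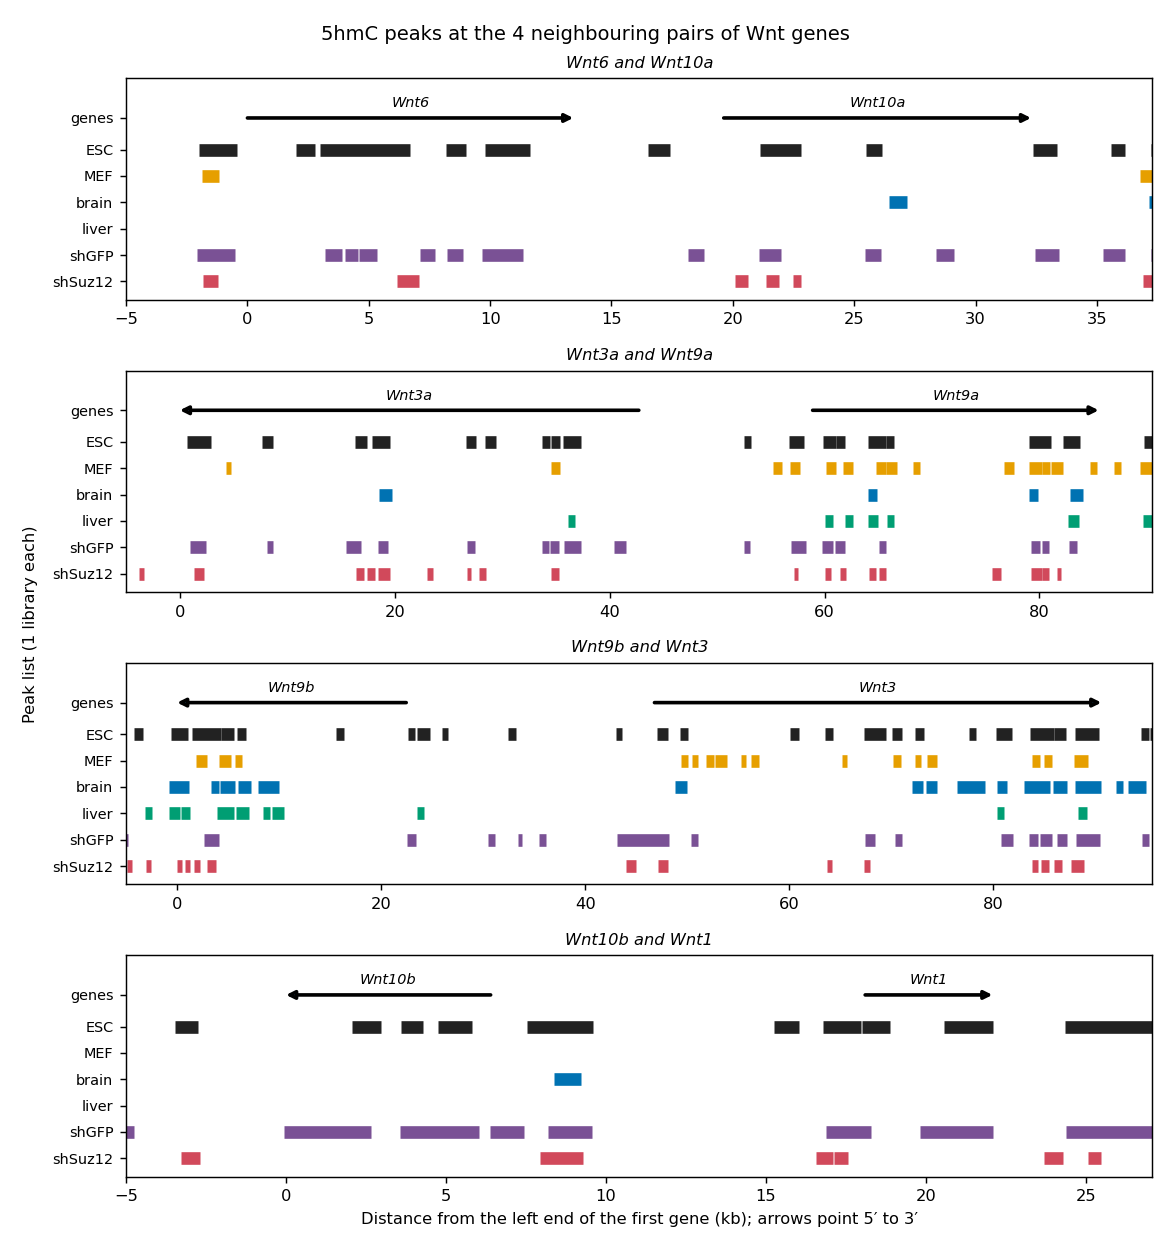
Peaks of the 6 lists (bars, 1 row per library) over the 4 neighbouring pairs of Wnt genes and 5 kb on each side, by distance in kb from the left end of the first gene. Arrows are genes, drawn 5′ to 3′. MEF and liver have no bars over Wnt6, Wnt10a, Wnt10b or Wnt1, and the shGFP row shows wide bars over Wnt10b and at the start of Wnt3.

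The peaks in member spans were also compared between the lists. Of the 168 member peaks of ESCs, 68.5% overlapped a shGFP peak (60.8 to 75.4%; all genes 56.3%), 61.9% a MEF peak (all 48.0%), 50% a brain peak (all 51.4%), 46.4% a shSuz12 peak (all 48.3%) and 27.4% a liver peak (20.8 to 34.8%; all 46.2%). Of the 144 member peaks of shGFP, 84.0% overlapped an ESC peak (all 80.1%) and 46.5% a shSuz12 peak (38.2 to 55%; all 52.9%), and of the 115 member peaks of shSuz12, 58.3% overlapped a shGFP peak (all 55.3%). For the share of ESC peaks that overlapped a MEF peak the interval was 54.1 to 69.3%. Peaks of ESCs in these genes were thus shared with shGFP and MEFs more, and with liver less, than those in all genes. Liver peaks also covered less of the member spans (9.54%) than of all gene spans (12.9%), and the part of this was not tested. Peaks of 1 gene or library are not independent of each other.

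Other genes of the pathway, a list of 59 that holds co-receptors, transducers, nuclear factors, planar polarity genes and secreted modulators, were measured in the same way. A promoter peak was found at 31 in ESCs (52.5%, 39.1 to 65.7%; all genes 31.9%), 20 in MEFs (33.9%; all 30.1%), 21 in brain (35.6%; all 20.0%), 16 in liver (27.1%; all 29.4%), 27 in shGFP (45.8%, 32.7 to 59.2%; all 27.1%) and 19 in shSuz12 (32.2%; all 21.4%). The share in ESCs was close to that of the members, 54.1%, so that a share above all genes in ESCs was not particular to the ligands, receptors and antagonists. Of the 27 with a shGFP peak, 16 had none in shSuz12 (59.3%, 38.8 to 77.6%; all 44.1%), and 8 of the 59 had a peak in shSuz12 and none in shGFP (13.6%, 6.04 to 25.0%; all 6.25%). Their promoter ratio of shSuz12 to shGFP was 0.451, compared with 0.336 in the members, and that of shSuz12 to ESCs was 0.388, compared with 0.463.

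By group, 7 of 12 other secreted modulators had a promoter peak in ESCs, 4 in MEFs, 2 in brain, 2 in liver, 8 in shGFP and 5 in shSuz12, whereas of 15 cytoplasmic transducers 8, 7, 8, 6, 5 and 2 had one. These groups are small, and the difference between them was not tested. The largest decreases in promoter bp from shGFP to shSuz12 were at Dkkl1 (1128 to 0 bp), a Dkk-like secreted protein, Ctnnb1 (1202 to 143 bp), which encodes β-catenin, Wls (1057 to 0 bp), which carries Wnt proteins to the cell surface, Rspo1 (1255 to 268 bp), which potentiates Wnt signals, and Vangl2 (1771 to 815 bp), a planar polarity gene. The largest increases were at Csnk1e (0 to 1185 bp), Lgr6 (0 to 527 bp), an R-spondin receptor, and Bcl9 (0 to 498 bp), a β-catenin cofactor. Of the 59 genes, 15 had no promoter peak in any library (25.4%, 15.0 to 38.4%; all 40.6%), namely Axin1, Celsr3, Csnk1a1, Dvl3, Gsk3a, Lef1, Lgr5, Lrp6, Notum, Porcn, Ror1, Rspo2, Tle1, Tle3 and Tle4. Porcn is on the X chromosome, where the lists held 22 to 757 peaks each.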

How the data were processed

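The data are GLIB-Seq peak lists of 6 libraries, 1 per condition. Per the labels and the study's methods, the authors processed the reads with CASAVA 1.8, mapped them to mm9 with Bowtie 0.12.7, retained reads with a unique hit, merged duplicates and called the peaks of each library with MACS 1.4.1. Which threshold and which control MACS used is not given in the sources used here. The deposited values are peak positions and the MACS score of each peak, which grows with −log10 of the peak's p-value. The lists hold no read counts, so the depth is unknown and a longer list may come from deeper sequencing or a lower threshold. RNA-Seq samples of the shGFP and shSuz12 cells (2 in all) were not analysed here.

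Peaks were set against protein-coding genes of GENCODE version 1 (Ensembl 65) on the nuclear chromosomes of NCBIM37, the same assembly as mm9, and the 1 to 3 mitochondrial peaks per list were left out. Members were the genes whose symbol is Wnt, Fzd, Sfrp or Dkk followed by a number and, where present, a or b. The members, the list of other pathway genes (60 symbols, 59 found) and the measures were chosen with earlier results of these data known. A promoter is the TSS, the 5′ end of the gene, ± 1 kb, and a peak counts with an overlap of at least 1 bp. CpG classes used windows of 500 bp from 700 bp upstream to 200 bp downstream of the TSS, with low CpG content where no window had an observed-to-expected ratio above 0.48. Each member could be named by its role, sequences were taken at the largest decreases in promoter bp from shGFP to shSuz12, and of the other pathway genes those without a promoter peak, the 5 largest decreases and the 3 largest increases were named. For shares, 95% intervals were computed by the exact Clopper-Pearson method and cover counting error only. Conditions have 1 library each and were not tested against each other. Alternatives were a score of at least 80, the best-scoring 50% of each list, promoters of ± 500 bp or ± 2 kb, peak midpoints, promoters of all annotated transcripts and gene spans with 5 kb on each side, and, added after seeing the data, ESCs as the reference for shSuz12 and the Sfrp genes without Sfrp1. Overlaps were tested on simulated peaks. Software was samtools 1.23.1 and Python 3.11.15 (pysam 0.24.0, scipy 1.17.1, pandas 2.3.3, numpy 2.4.6, matplotlib 3.10.9).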

Additional observations from a re-analysis of the deposited data

How the results depend on the processing

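Of 75 alternative values, 39 stayed close to the value reported, 36 moved further and 0 changed direction. Close meant within 1.5 times for counts. For shares of bp and ratios it meant within a 95% interval, which is not given here. With a score of at least 80, promoter peaks were found at 2 members in MEFs, 1 in brain and 4 in shSuz12, gene spans were covered over 12.7% in MEFs, 8.15% in brain, 12.6% in shGFP and 2.77% in shSuz12, and the ratios of shSuz12 to shGFP were 0.112 in promoters and 0.219 in gene spans. With the 50% of each list that scored highest, promoter peaks were found at 6 members in MEFs, 2 in liver and 8 in shSuz12, 5 members had one in shSuz12 and none in shGFP, and gene spans were covered over 16.7% in ESCs, 16.2% in MEFs, 12.8% in brain, 6.03% in liver, 11.8% in shGFP and 5.08% in shSuz12. Promoters of ± 500 bp gave counts of 5 (MEFs), 1 (brain) and 2 (liver), and 2 members had a peak in shSuz12 and none in shGFP. With ± 2 kb they were 17 in MEFs, 13 in brain, 12 in liver and 20 in shSuz12. With peak midpoints they were 13 in ESCs, 5 in MEFs, 1 in brain, 2 in liver and 15 in shGFP, with 7 lost and 4 gained from shGFP to shSuz12. With ESCs as the reference in place of shGFP, chosen after seeing the data, the ratios for shSuz12 were 0.463 in promoters and 0.381 in gene spans, against 0.457 and 0.451 in all genes. Leaving Sfrp1 out, also chosen after seeing the data, moved the gene-span ratio of the Sfrp genes from 0.7 to 0.0916. Fewer peaks enter under both score settings, and narrower windows meet fewer peaks by construction. In every alternative the ESC and shGFP counts stayed above those of MEFs, brain and liver. No paired analysis was possible because there is 1 library per condition. The scores reach down to different values and the depth is unknown, so the absence of a peak does not show that 5hmC is absent.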
